A study of Homo sapiens with 6 samples.

Results

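The genes described here encode the nuclear subunits of the oxidative phosphorylation complexes. They were chosen by name, as the genes whose symbols begin with NDUFA, NDUFB, NDUFC, NDUFS or NDUFV and a number (complex I), the genes SDHA to SDHD (complex II), the UQCR genes and CYC1 (complex III), the COX4 to COX8 genes with a letter A, B or C (complex IV), and the genes from ATP5A to ATP5L (complex V). Of the 23228 genes counted, 83 fitted the rule, with 37 in complex I, 4 in complex II, 10 in complex III, 15 in complex IV and 17 in complex V. RNA was sequenced from 3 control and 3 SMIP34-treated samples of HEC-1-A, a human endometrial adenocarcinoma cell line, after 24 h in McCoy's 5A medium with serum. SMIP34 is a small-molecule inhibitor of PELP1, a nuclear scaffold protein, and the control samples received vehicle according to the study's methods, while their labels name the medium only. The dose is not given in the labels. All samples came from 1 cell line, and nothing in the labels says whether the replicates were separate cultures, so the p-values below measure only the spread between these samples, which may be technical.

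Oxidative phosphorylation takes place at the inner mitochondrial membrane. Complexes I and II pass electrons from NADH and succinate to coenzyme Q, complex III passes them on to cytochrome c, and complex IV hands them to oxygen. Complexes I, III and IV pump protons across the membrane, and complex V, the ATP synthase, makes ATP as the protons flow back. Most subunits are encoded in the nucleus and imported, while the core of the proton pumps and part of the ATP synthase are encoded in mitochondrial DNA, which was not analysed here.

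The values are estimated counts of reads per gene, deposited without normalization, and total counts lay between 19562711 and 22014835 per library. Counts were scaled to the library size and are given as CPM, the usual counts per scaled library total. Epithelial markers were present, with a summed level of EPCAM, CDH1, KRT8, KRT18 and KRT19 between 2908 and 3011 CPM in control and between 2762 and 2775 CPM in SMIP34-treated libraries, and 2 of the 5, KRT8 and KRT19, fell. Of 5 stromal, endothelial and leukocyte markers, COL1A1 alone had enough counts for the test, with 2.71 to 3.13 CPM in control and 3.84 to 4.53 CPM in SMIP34-treated libraries, while COL1A2, DCN, PECAM1 and PTPRC had between 0 and 7 counts per library. The mRNA of PELP1 itself rose by 0.16 on the log2 scale, from 139 ± 6.50 CPM in control to 156 ± 4.42 CPM with SMIP34 (SD over 3 libraries). The study reported less PELP1 protein after SMIP34 on Western blots, and RNA counts do not measure protein. CPM are shares of each library, so they show neither the number of cells nor the amount of RNA per cell.

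The mRNAs of the oxidative phosphorylation subunits were slightly lower in SMIP34-treated cells, in all 5 complexes. Of the 83 genes, 74 had enough counts for the test, and 60 of these fell at an adjusted p under 0.05 while 0 rose (edgeR quasi-likelihood test, Benjamini-Hochberg adjustment over 13408 genes). No subunit rose at an unadjusted p under 0.05 either, and 0 rose in DESeq2 and in limma voom. Over all genes tested, 17.2% fell and 17.4% rose at this threshold. The median standard error was 0.037 for the subunits and 0.057 over all genes tested. A shift of a given size therefore passed the test more easily in the subunits. The changes were small: the median log2 fold change was −0.14, against −0.0022 over all genes tested, so that the median subunit fell by 9.51%. None of the 74 passed an absolute log2 fold change of 0.5 together with the adjusted p, which 3.31% of all genes did. The other 14 of the 74 did not pass the test in either direction. When the fit included offsets for gene length, described further on, 31 of the 74 fell, against 15.8% of all genes. In that fit 2 rose, against 15.7% of all genes, and the median was −0.060. Complex IV was then near the share of all genes, as 2 of 10 fell, with a median of −0.017.

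In 56 of the 74 genes, every SMIP34-treated library lay below every control library, against 21.9% of all genes tested. Each complex held genes that fell. In complex I 27 of 37 genes fell, with a median log2 fold change of −0.14. In complex II 3 of 4 fell, with a median of −0.14, and in complex III 6 of 8 fell, with a median of −0.13. In complex IV 10 of 10 tested genes fell, of which COX7A2L passed in 5 of 17 alternative fits, with a median of −0.14, and in complex V 14 of 15 fell, with a median of −0.18. A test between complexes was not made, since subunits are not replicates of a condition.

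**Figure D1:**
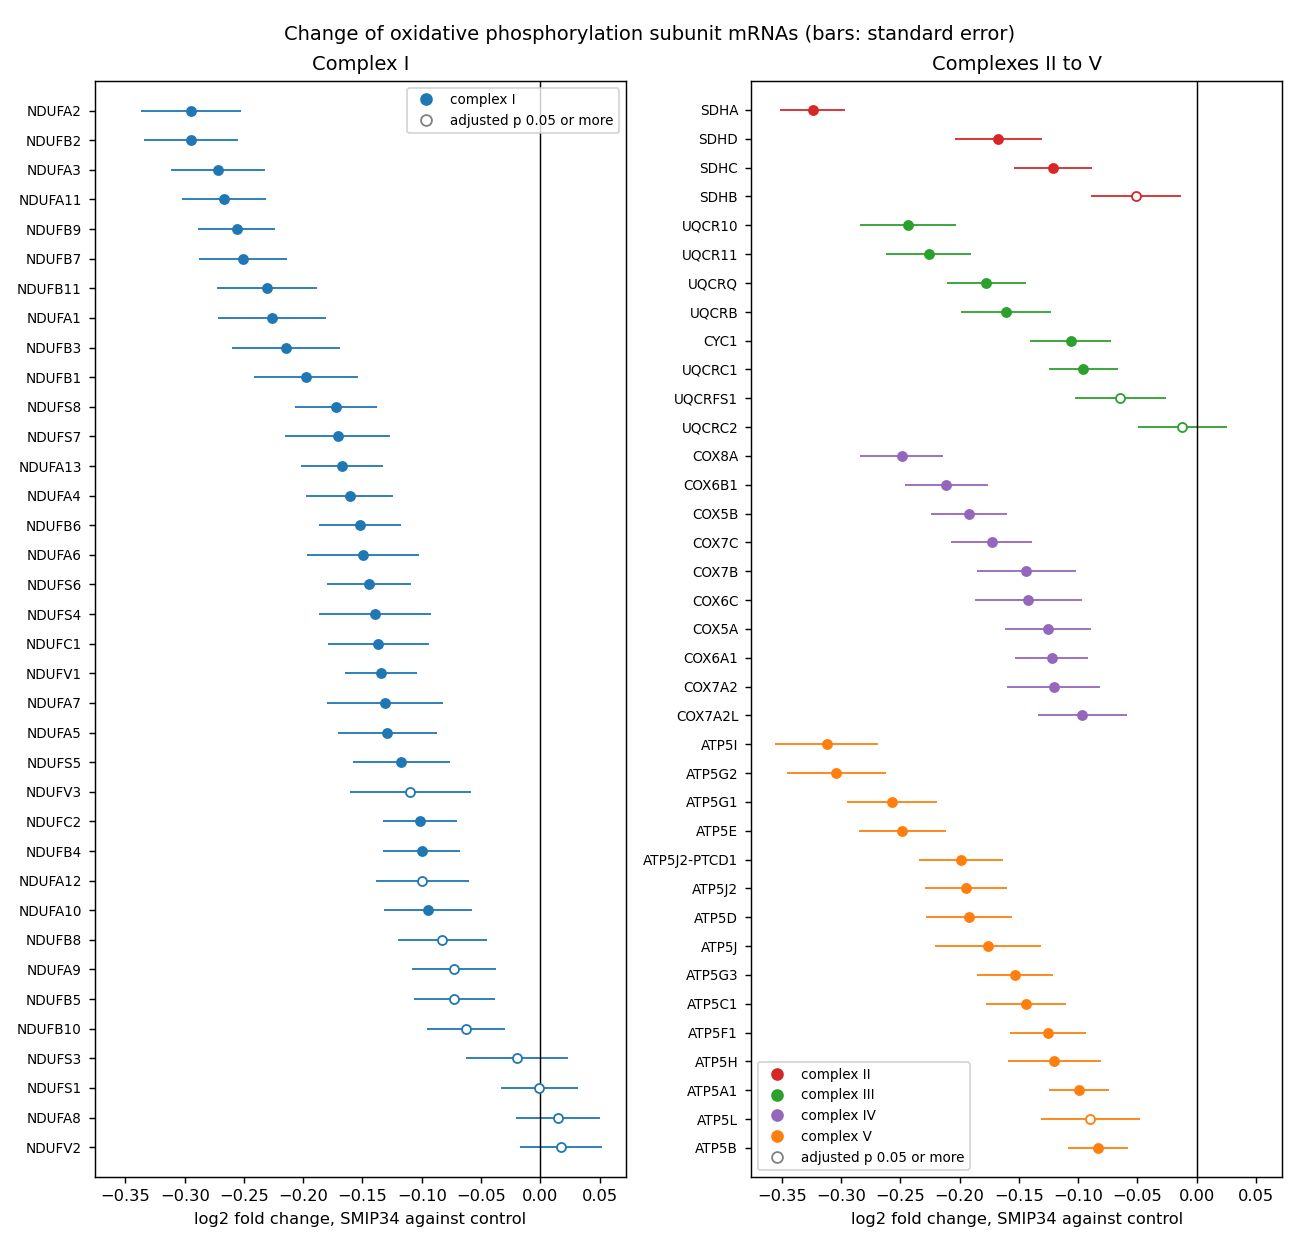
The plot shows the log2 fold change of the tested subunit mRNAs, all but 1 of the 74, with its standard error as a bar, on the horizontal axis, ordered within each complex, where filled points have an adjusted p under 0.05. The points lie between −0.32 (SDHA) and 0.02 (NDUFV2), and all plotted genes but NDUFV2 and NDUFA8 are below 0.

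Summed over its genes, complex I had 4157, 4230 and 3965 CPM in the 3 control libraries and 3752, 3691 and 3737 CPM in the 3 SMIP34-treated libraries, and decreased by 9.49%. Complex II had 777, 779 and 750 CPM in control and 656, 652 and 657 CPM in SMIP34-treated libraries, and decreased by 14.7%, most of it through SDHA. The sum for complex III decreased by 8.76%, from 1449 ± 62.4 to 1322 ± 14.6 CPM. For complex IV it decreased by 11.1%, from 1917 ± 100.4 to 1705 ± 27.2 CPM, and for complex V it decreased by 9.24%, from 3537 ± 130 to 3210 ± 46.9 CPM (SD, n = 3 each). In each complex the 3 SMIP34-treated libraries lay below the 3 control libraries. These sums leave out ATP5J2-PTCD1, a readthrough gene whose exons are all shared with ATP5J2 or PTCD1. As a share of all counts, the subunits together made up 1.17 ± 0.0373% in control cells and 1.07 ± 0.0115% after SMIP34.

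The control libraries were not alike in these genes. The median deviation of the 74 genes from their control mean, on the log2 scale, was 0.016 in control 1, 0.051 in control 2 and −0.066 in control 3, and it was −0.14, −0.17 and −0.13 in SMIP34-treated libraries 1, 2 and 3. Control 3 was the lowest of the controls in 66 of the 74 genes, and control 2 was the highest in 50. The spread between controls was thus shared by most subunits, and it was not small beside the distance between the groups. In complex IV the medians ran from −0.080 to 0.066 in the controls and from −0.16 to −0.11 in SMIP34-treated libraries. Over all genes tested the medians of controls 1, 2 and 3 were 0.00062, 0.0012 and 1.3e-06. Assembly factors of the complexes had 0.013, 0.039 and −0.038, so the order of the controls was not particular to the subunits. With control 2 left out 43 genes fell, with control 3 left out 63 fell, and the medians were −0.12 and −0.18. Part of the size of the change therefore depended on which controls were kept, and its direction did not. None of the counts in this paragraph was set beside a share over all genes.

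**Figure D2:**
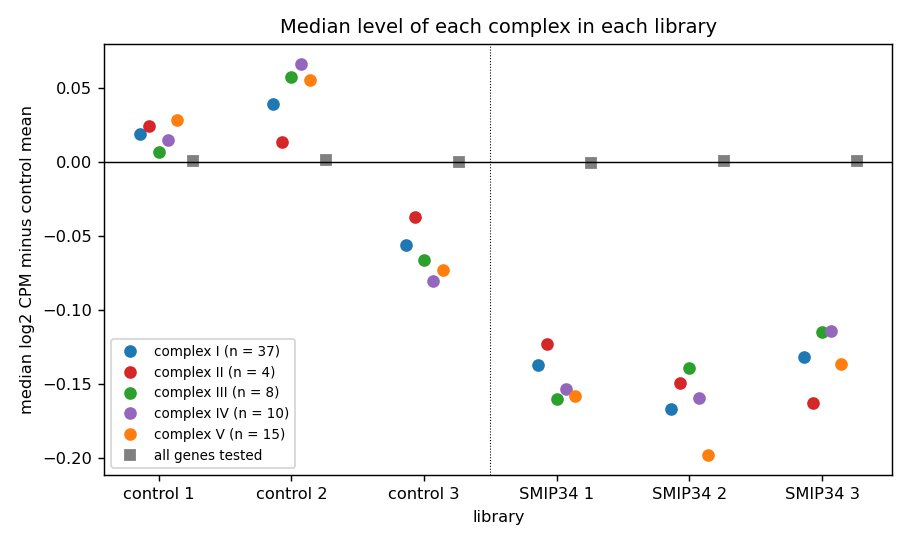
Each round point is the median over the tested genes of 1 complex of log2 CPM minus the gene's control mean, by library, and grey squares show the same over all genes tested. All 5 complexes are above −0.09 in the controls, lowest in control 3, and below −0.11 in the SMIP34-treated libraries, while the squares stay at 0.

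The promoters of the most decreased gene of each complex are printed below, since genes that move together may be compared by the sequence before their start. RefSeq windows (GRCh38.p14) from 250 bases before to 50 bases after the start were matched for 65 of the 83 genes. Shown are the 150 bases before the start, 5′ to 3′ on the strand of the gene. Capitals mark matches on either strand to the letters searched, which were GCGCATGC (a core of the NRF1 site), CCGGAAG (an ETS site, as bound by GABPA), AAGATGGCG (YY1) and GGGCGG (SP1). The stretches lie at chr5:140647631-140647780 on the minus strand (NDUFA2), chr5:218170-218319 on the plus strand (SDHA), chr22:29767219-29767368 on the plus strand (UQCR10), chr11:63974470-63974619 on the plus strand (COX8A) and chr4:674277-674426 on the minus strand (ATP5I).
NDUFA2: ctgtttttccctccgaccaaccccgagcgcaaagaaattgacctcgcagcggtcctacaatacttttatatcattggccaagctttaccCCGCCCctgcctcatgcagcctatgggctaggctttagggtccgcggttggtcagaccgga
SDHA: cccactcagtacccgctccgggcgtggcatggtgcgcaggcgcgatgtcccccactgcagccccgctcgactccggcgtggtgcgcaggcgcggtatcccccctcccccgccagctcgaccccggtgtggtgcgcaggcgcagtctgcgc
UQCR10: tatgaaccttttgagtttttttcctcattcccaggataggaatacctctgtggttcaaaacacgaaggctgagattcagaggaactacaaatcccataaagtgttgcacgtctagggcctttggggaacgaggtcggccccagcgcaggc
COX8A: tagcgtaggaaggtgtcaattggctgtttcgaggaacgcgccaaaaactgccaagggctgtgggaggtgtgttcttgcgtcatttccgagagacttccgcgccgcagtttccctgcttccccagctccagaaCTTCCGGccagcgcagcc
ATP5I: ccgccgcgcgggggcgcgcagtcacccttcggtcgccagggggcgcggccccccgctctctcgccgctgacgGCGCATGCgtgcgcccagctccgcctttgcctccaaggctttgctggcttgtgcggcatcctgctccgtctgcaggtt

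The 5 stretches did not share a motif among those searched. NDUFA2 held a match to GGGCGG on the opposite strand, COX8A a match to CCGGAAG on the opposite strand and ATP5I a match to GCGCATGC, while SDHA and UQCR10 held none, which says only that these letters are not in the bases shown. Over the full windows, GCGCATGC was found in 20.0% of the 65 subunit promoters, in 5.72% of the promoters of genes tested and in 3.27% of all 27305 promoters. AAGATGGCG was found in 12.3% of subunit promoters, 4.03% of those of genes tested and 1.85% of all. CCGGAAG was found in 27.7%, 19.4% and 10.7% of these, and GGGCGG in 56.9%, 70.3% and 44.6%. The shares of subunit promoters with the NRF1 and YY1 letters were thus above those of genes tested, and the share with GGGCGG was below it, with no test of these differences. The median log2 fold change was −0.15 for the 13 tested subunits with the NRF1 letters and −0.14 for those without. It was −0.18 for the 17 with the ETS letters and −0.14 without, and −0.14 for the 8 with the YY1 letters and −0.15 without. For the 36 with the SP1 letters it was −0.13, and −0.16 without. These differences were not tested. The letters GCGCAGGC occur 3 times in the SDHA stretch and once at the end of that of UQCR10. They were chosen after the SDHA stretch had been read, and were found in 16.9% of subunit promoters, 11.4% of those of genes tested and 6.38% of all.

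Complex I takes electrons from NADH through a hydrophilic arm that carries the flavin and iron-sulfur clusters and has several NDUFV and NDUFS subunits at its core. Many NDUFA and NDUFB genes encode accessory subunits, the NDUFB ones in the membrane arm. NDUFA2, an accessory subunit of the hydrophilic arm (hg19 chr5:140024948-140027370, minus strand), had 72.4, 71.0 and 67.6 CPM in control and 58.9, 55.2 and 57.8 CPM in SMIP34-treated libraries. The groups did not overlap, and its log2 fold change was −0.29 (SE 0.042, adjusted p = 4.78e-06, edgeR). NDUFB2, an accessory subunit of the membrane arm (chr7:140396481-140406446, plus strand), had 106.6, 109.3 and 99.1 CPM in control and 88.0, 82.7 and 86.2 CPM in SMIP34-treated libraries. It fell as far as NDUFA2, with a log2 fold change of −0.29 (SE 0.039, adjusted p = 1.71e-06, edgeR). NDUFA3 and NDUFA11, further accessory subunits, followed at −0.27 each.

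At the other end of complex I were NDUFV2 and NDUFA8. NDUFV2, an iron-sulfur subunit beside the flavin subunit NDUFV1 (chr18:9102628-9134343, plus strand), had 115.6, 119.4 and 110.8 CPM in control and 117.8, 116.7 and 115.5 CPM in SMIP34-treated libraries. The groups overlapped, and the log2 fold change was 0.017 (SE 0.035, adjusted p = 0.739, edgeR). NDUFA8, an accessory subunit (chr9:124906338-124922098, minus strand), had 96.1, 98.0 and 94.0 CPM in control and 98.3, 94.2 and 98.6 CPM in SMIP34-treated libraries, a log2 fold change of 0.015 (SE 0.036, adjusted p = 0.787, edgeR). These were the only 2 of the 74 genes with an estimate above 0. NDUFS1, the large iron-sulfur subunit, was close to them at −0.00078, and NDUFS3 was at −0.020.

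Among the genes of complex I, NDUFA13 had the highest level per length in control, 412 CPM per kilobase of exon, and NDUFV3, a small flavoprotein subunit, the lowest, 17.3 CPM per kilobase. NDUFA13 had 226, 235 and 209 CPM in control and 196, 198 and 203 CPM in SMIP34-treated libraries, and its log2 fold change was −0.17. NDUFV3 had 37.96, 36.97 and 35.41 CPM in control and 33.95, 34.49 and 33.79 CPM in SMIP34-treated libraries. Its groups did not overlap either, but it did not pass the test, at a log2 fold change of −0.11 (adjusted p = 0.0999, edgeR). The length used here joins the exons of all transcripts of a gene, long alternative ends included, so a low level per kilobase may belong to a long annotated exon. NDUFA4 is counted here with complex I by its name and is now placed in complex IV. It fell with a log2 fold change of −0.16.

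Complex II, succinate dehydrogenase, is also an enzyme of the citric acid cycle. SDHA, its flavoprotein subunit (chr5:218356-256814, plus strand), had 438.1, 445.6 and 425.3 CPM in control and 347.6, 342.6 and 355.7 CPM in SMIP34-treated libraries. The groups were far apart relative to their spread, and SDHA, which fell by 20.1%, had the largest decrease of the 74 genes, at a log2 fold change of −0.32 (SE 0.027, adjusted p = 7.55e-10, edgeR). SDHD, a membrane anchor subunit (chr11:111957571-111966518, plus strand), had 106.2, 100.3 and 102.7 CPM in control and 94.97, 89.26 and 90.85 CPM in SMIP34-treated libraries. It fell about as far as most subunits, at a log2 fold change of −0.17 (SE 0.037, adjusted p = 0.000803, edgeR).

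SDHC, the other membrane anchor (chr1:161284166-161334535, plus strand), had 139.7, 135.4 and 132.1 CPM in control and 124.1, 127.4 and 122.8 CPM in SMIP34-treated libraries, at a log2 fold change of −0.12 (adjusted p = 0.00553, edgeR). SDHB, the iron-sulfur subunit that binds SDHA (chr1:17345225-17380665, minus strand), had 92.9, 97.4 and 90.1 CPM in control and 89.5, 93.1 and 88.1 CPM in SMIP34-treated libraries. Its groups overlapped, and the log2 fold change of −0.052 (SE 0.038) did not pass the test (adjusted p = 0.316, edgeR). The ratio of SDHA to SDHB in CPM was 4.72, 4.57 and 4.72 in control and 3.88, 3.68 and 4.04 in SMIP34-treated libraries. Its groups did not overlap, which gives p = 0.1 in an exact two-sided permutation test, the smallest value that 3 against 3 libraries allow, and 0.2 after adjustment over the 6 pairs compared. The ratio of NDUFV1 to NDUFV2 in complex I did not overlap either. It was 1.89 ± 0.0114 in control and 1.70 ± 0.0266 in SMIP34-treated libraries (exact permutation test, p = 0.1, adjusted p = 0.2).

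SDHA has near-identical copies elsewhere in the genome, and 31.4% of the 50-base stretches of its exons, the length of the reads, occur more than once in GRCh37. The pseudogenes SDHAP1, SDHAP2 and SDHAP3 had control means of 17.9, 15.0 and 5.65 CPM, far below SDHA, and log2 fold changes of 0.079, 0.13 and −0.16, none of which passed the test (adjusted p = 0.419, 0.264 and 0.375, edgeR). The share of repeated stretches was 48.2% for SDHD and 26.4% for SDHC, and SDHB had none. Reads that mapped to several places were divided, or left out if below the minimum mapping quality, so the counts of SDHA, SDHC and SDHD are uncertain.

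**Figure D3:**
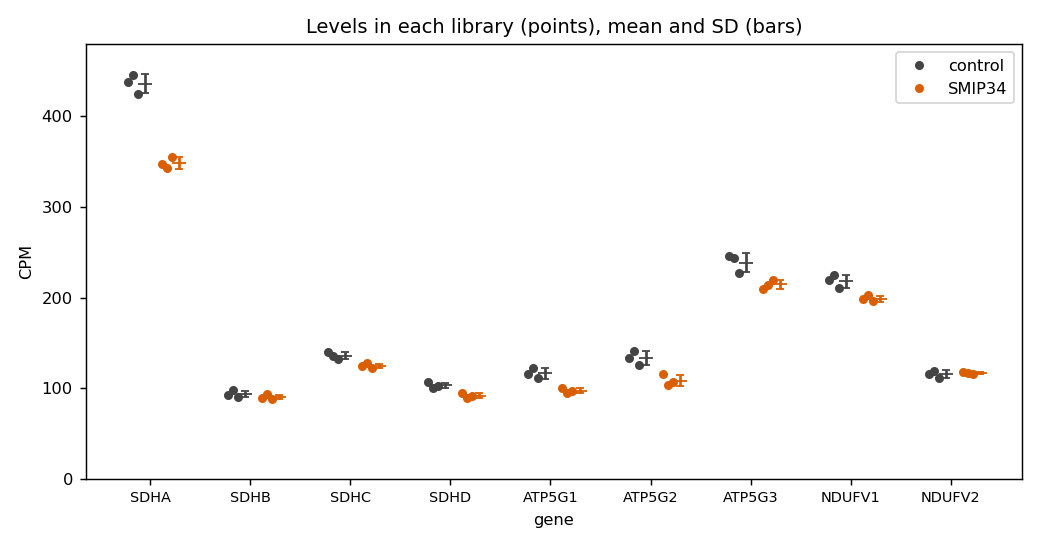
CPM is shown on the vertical axis, from 0, for the 4 complex II genes, the 3 genes of the complex V c subunit and the flavin and iron-sulfur subunits NDUFV1 and NDUFV2, with each library as a point and the mean and SD beside them. SDHA falls from 436 to 349 CPM, while SDHB and NDUFV2 overlap between the groups.

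Complex III passes electrons from coenzyme Q to cytochrome c. UQCR10, a small subunit (chr22:30163358-30166402, plus strand), had 96.5, 106.6 and 97.9 CPM in control and 87.1, 81.3 and 86.2 CPM in SMIP34-treated libraries, at a log2 fold change of −0.24 (SE 0.041, adjusted p = 3.55e-05, edgeR). UQCR11, another small subunit (chr19:1597154-1605483, minus strand), had 192, 193 and 173 CPM in control and 159, 155 and 163 CPM in SMIP34-treated libraries, at a log2 fold change of −0.23 (SE 0.036, adjusted p = 1.90e-05, edgeR). In both genes all SMIP34-treated libraries were below all controls. UQCRC2, a core subunit on the matrix side (chr16:21964609-21994668, plus strand), had 91.8, 93.4 and 88.6 CPM in control and 91.4, 87.1 and 93.0 CPM in SMIP34-treated libraries, at a log2 fold change of −0.012 (SE 0.037, adjusted p = 0.838, edgeR). UQCRFS1, the Rieske iron-sulfur protein that takes part in electron transfer, had 138, 146 and 130 CPM in control and 126, 135 and 135 CPM in SMIP34-treated libraries, at a log2 fold change of −0.064 that did not pass the test (adjusted p = 0.204, edgeR). In both of these genes the groups overlapped. CYC1, cytochrome c1, the other electron-carrying protein of the complex encoded in the nucleus, fell at a log2 fold change of −0.11 (adjusted p = 0.0174, edgeR).

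UQCRC1, the partner of UQCRC2, had the highest level of complex III per length in control, 237 CPM per kilobase, with 382, 396 and 370 CPM in control and 366, 358 and 350 CPM in SMIP34-treated libraries. It fell at a log2 fold change of −0.096 (adjusted p = 0.0113, edgeR). UQCRB had the lowest, 36.8 CPM per kilobase over an annotated length of 4533 bases, with 173, 169 and 158 CPM in control and 145, 143 and 159 CPM in SMIP34-treated libraries. Its groups overlapped in 1 pair of libraries, and it passed the test at −0.16. The ratio of UQCRC1 to UQCRC2 was 4.19 ± 0.0396 in control and 3.96 ± 0.177 in SMIP34-treated libraries (exact permutation test, p = 0.1, adjusted p = 0.2). UQCRH, the hinge protein of complex III, was an exception in level: it had 0, 0 and 6 counts in control and 2, 3 and 3 counts in SMIP34-treated libraries, near or below the 3 counts taken as a floor. Its copy UQCRHL had 2 to 4 counts per library. Of the exon stretches of UQCRH, 21.9% occur more than once in GRCh37, and the neighbouring genes LRRC41 and NSUN4 had control means of 9.74 and 50.5 CPM. The reason for the low count of UQCRH was not tested.

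Complex IV, cytochrome c oxidase, has small nuclear subunits around its mitochondrially encoded core. COX8A (chr11:63742079-63744015, plus strand) had 250.9, 257.7 and 234.5 CPM in control and 219.6, 203.0 and 202.8 CPM in SMIP34-treated libraries, at a log2 fold change of −0.25 (SE 0.035, adjusted p = 3.89e-06, edgeR). COX6B1 (chr19:36139125-36149686, plus strand) had 268, 277 and 245 CPM in control and 233, 225 and 224 CPM in SMIP34-treated libraries, at −0.21 (SE 0.035, adjusted p = 3.04e-05, edgeR). Neither gene's groups overlapped. COX7A2L, which binds complexes III and IV together, changed least in complex IV, with 91.6, 94.2 and 87.4 CPM in control and 85.8, 83.4 and 86.3 CPM in SMIP34-treated libraries, at a log2 fold change of −0.096 (SE 0.038, adjusted p = 0.0474, edgeR). It was close to the threshold and passed in 5 of 17 alternative fits, without passing in DESeq2 or limma voom. COX7A2, the form of subunit VIIa found in most tissues, had 180, 183 and 158 CPM in control and 159, 158 and 162 CPM in SMIP34-treated libraries, at −0.12 (adjusted p = 0.0184, edgeR). Control 3 lay just below all SMIP34-treated libraries, and the other two controls lay above them.

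COX5B had the highest level per length of all 74 genes, 661 CPM per kilobase in control, with 336, 350 and 315 CPM in control and 298, 289 and 290 CPM in SMIP34-treated libraries, at a log2 fold change of −0.19. COX7B, with 98.7, 101.9 and 89.5 CPM in control and 85.6, 86.3 and 90.7 CPM in SMIP34-treated libraries, fell at −0.14 although its groups overlapped. COX6A1, with 255, 268 and 250 CPM in control and 236, 231 and 243 CPM in SMIP34-treated libraries, fell at −0.12, and 61.1% of its exon stretches occur more than once in GRCh37. Several complex IV subunits have a second form made in heart and skeletal muscle, in testis or elsewhere. These second forms were at or near 0: COX6A2, COX6B2 and COX7A1 had 0 to 2 counts per library, COX7B2 had 0 in all 6, and COX8C had 0 to 7. A floor of 3 counts corresponds to 0.137 to 0.155 CPM in these libraries, an allowance for counting error only. The forms present in HEC-1-A cells were thus COX6A1, COX6B1, COX7A2, COX7B and COX8A.

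Complex V is made of a catalytic head on the matrix side, a stalk and a membrane rotor. ATP5I, subunit e of the membrane part (chr4:666225-668127, minus strand), had 149.5, 149.4 and 131.3 CPM in control and 116.6, 108.6 and 121.2 CPM in SMIP34-treated libraries, at a log2 fold change of −0.31 (SE 0.043, adjusted p = 3.11e-06, edgeR). The c subunit of the rotor ring is encoded by 3 genes, ATP5G1, ATP5G2 and ATP5G3, whose mature proteins are the same. ATP5G2 (chr12:54058944-54070512, minus strand) had 133.7, 141.3 and 126.0 CPM in control and 115.5, 103.2 and 106.2 CPM in SMIP34-treated libraries, at −0.30 (SE 0.042, adjusted p = 2.45e-06, edgeR). ATP5G1 (chr17:46970148-46973232, plus strand) had 115.3, 122.5 and 110.8 CPM in control and 99.94, 94.97 and 96.93 CPM in SMIP34-treated libraries, at −0.26 (SE 0.038, adjusted p = 7.11e-06, edgeR). ATP5G3 (chr2:176040986-176046490, minus strand) had 245.5, 243.5 and 226.7 CPM in control and 209.6, 214.3 and 219.7 CPM in SMIP34-treated libraries, at −0.15 (SE 0.032, adjusted p = 0.000513, edgeR). All 3 genes fell, and none had overlapping groups. The ratio of ATP5G2 to ATP5G3 was 0.545, 0.580 and 0.556 in control and 0.551, 0.481 and 0.483 in SMIP34-treated libraries, with 1 SMIP34-treated library among the controls (exact permutation test, p = 0.2, adjusted p = 0.24). That of ATP5G1 to ATP5G3 was 0.487 ± 0.0166 in control and 0.454 ± 0.0200 in SMIP34-treated libraries (exact permutation test, p = 0.2, adjusted p = 0.24).

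ATP5B, the catalytic beta subunit (chr12:57031959-57039852, minus strand), had the highest CPM of the 74 genes and the highest level of complex V per length, 500 CPM per kilobase. It had 921, 947 and 900.0 CPM in control and 868, 869 and 876 CPM in SMIP34-treated libraries. Its log2 fold change of −0.083 (SE 0.025, adjusted p = 0.0124, edgeR) was the smallest of complex V. ATP5A1, the alpha subunit that alternates with it in the head, fell at −0.099, and their ratio was 0.677 ± 0.0117 in control and 0.669 ± 0.00857 in SMIP34-treated libraries (exact permutation test, p = 0.5, adjusted p = 0.5). ATP5L, subunit g, had 163, 164 and 142 CPM in control and 150, 140 and 151 CPM in SMIP34-treated libraries, and at −0.090 it was the one tested gene of complex V that did not pass (adjusted p = 0.0977, edgeR). Its groups overlapped through control 3. ATP5J2-PTCD1, the readthrough gene, had the lowest level per length, 28.3 CPM per kilobase over 5538 bases, with 158, 163 and 150 CPM in control and 142, 133 and 135 CPM in SMIP34-treated libraries. Its log2 fold change of −0.20 is close to the −0.19 of ATP5J2, with which it shares exons, and without it 59 genes fell.

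Too few counts for the test were found for ATP5EP2, a pseudogene of ATP5E, with 4 to 11 per library, and for ATP5L2, a copy of ATP5L, with 0 to 3. Exons were shared with another gene in 4 of the genes: for ATP5J2 35.4% of the exon length is shared with ATP5J2-PTCD1, for ATP5E 66.3% with SLMO2-ATP5E, and for NDUFC2 31.7% with NDUFC2-KCTD14. Of the 74 genes, 22 had whole counts in all libraries, though divided reads can also add up to whole numbers, and 17 of these fell with a median log2 fold change of −0.15. Of the 83 genes, 41 had no repeated 50-base stretch, and 16 had more than 10% of their stretches repeated.

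The subunit genes are short, and fold changes in these libraries followed gene length. The median exon length of the 74 genes was 985.5 bases, against 3027.5 over all genes tested, and 64 of the 74 were in the shortest 3 of 10 classes of genes made by length. The median log2 fold change of all genes was −0.10 in the class of the shortest genes and 0.12 in that of the longest. In the shortest class, the 44 subunits had a median of −0.16, and in the next, 15 subunits had a median of −0.13, where all genes had −0.073. In all, 62 of the 74 subunits lay below the median of their own class. Across the 74 subunits, fold change and the logarithm of length had a Pearson r of 0.25 and a Spearman rho of 0.30, as a description only, since the genes share the same 6 libraries, and over all genes tested they were 0.17 and 0.29.

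**Figure D4:**
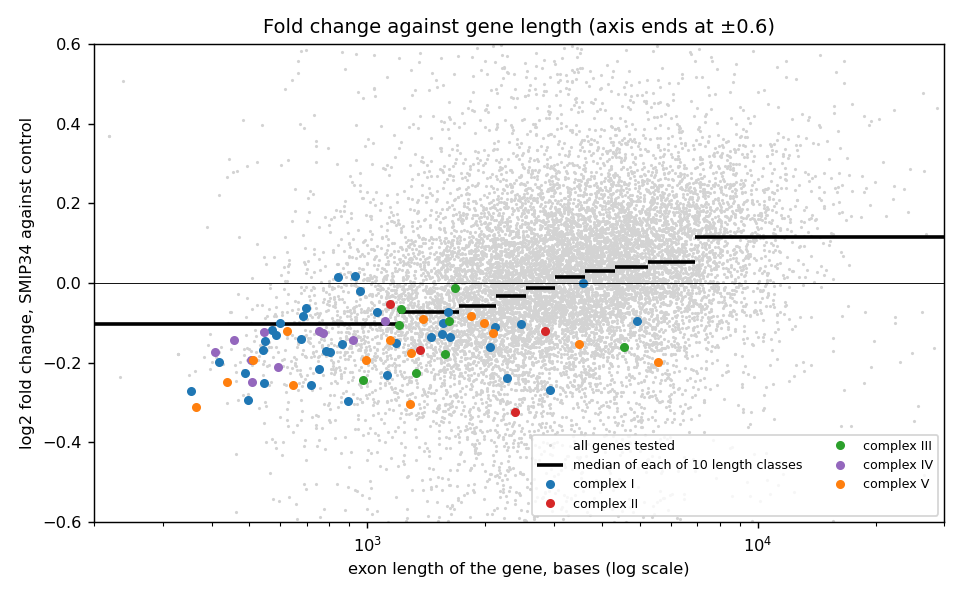
Each coloured point is a subunit gene and each grey point another gene tested, with exon length on a log axis and log2 fold change on the vertical axis, which ends at ±0.6, so that some grey points fall outside. Black bars give the median of each of 10 classes of genes by length, from −0.10 to 0.12, and 62 of the 74 subunits lie below their bar.

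When each library was fitted with offsets that remove the dependence of its counts on gene length, about as many genes were called but fewer of the subunits. Of the 74 genes, 31 fell and 2 rose, the latter being NDUFA8 and NDUFV2, at log2 fold changes of 0.12 each. All 31 had also fallen without the offsets. The median log2 fold change of the subunits was −0.060 with offsets and −0.14 without, and that of all genes stayed at −0.0022. The medians of the complexes then lay further apart, with no test between them. In complex IV 2 of 10 genes fell (COX8A and COX6B1) with a median of −0.017, in complex I 12 of 37 fell with a median of −0.059, in complex III 4 of 8 with a median of −0.077, in complex V 10 of 15 with a median of −0.097, and in complex II 3 of 4 with a median of −0.11. Over all genes tested 15.8% fell in this fit, which is near the share in complex IV. The complex IV genes were the shortest, with a median of 567.5 bases, and the complex II genes the longest, with 1877 bases. Whether the dependence on length belongs to the treatment or to the libraries cannot be told apart here.

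The offsets moved short subunits more. The 38 genes under 1000 bases had a median of −0.17 without and −0.045 with length offsets, and with them 12 fell and 2 rose. The 36 genes of 1000 bases or more had a median of −0.13 without and −0.074 with offsets, and with them 19 fell. SDHA, at 2389 bases, moved from −0.32 to −0.30. NDUFA11, at 2938 bases, was at −0.27 in both fits. ATP5I, at 365 bases, moved from −0.31 to −0.16. Of these genes, the longer ones thus moved by little and the short ATP5I moved the most.

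**Figure D5:**
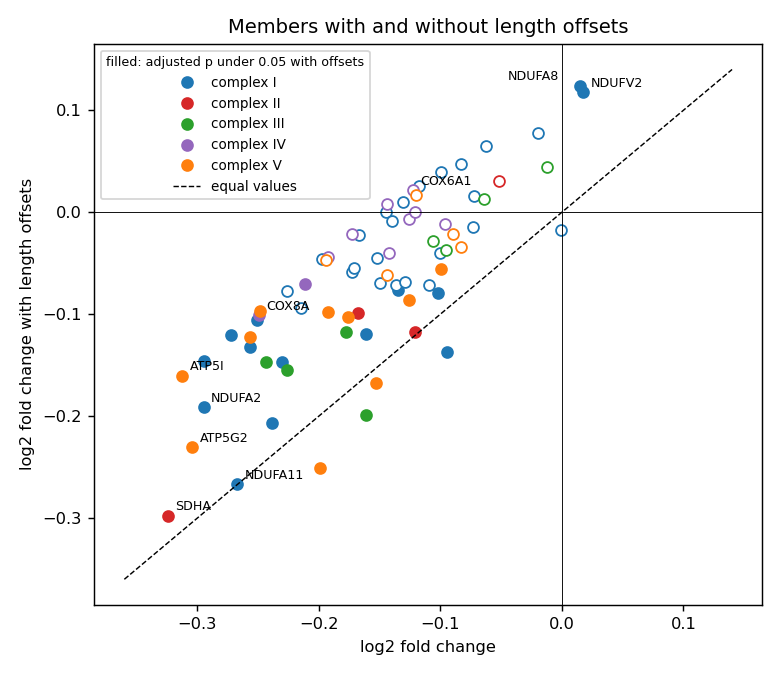
Each point is 1 subunit gene, with its log2 fold change on the horizontal axis and the same with length offsets on the vertical axis, filled where the adjusted p with offsets is under 0.05. SDHA and NDUFA11 stay near the dashed line of equal values, most complex IV genes rise to near 0, and NDUFA8 and NDUFV2 lie at 0.12.

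Across 17 alternative fits, which include other tools, scalings and filters, the length offsets, the replicate block and the fits without 1 library, 28 of the 74 genes fell at an adjusted p under 0.05 every time. The same share over all genes is not given here. It cannot exceed the 15.8% of all genes that fell with length offsets. The 28 genes include SDHA, SDHC and SDHD of complex II, NDUFA2, NDUFB2 and NDUFA11 of complex I, UQCR10, UQCR11, UQCRQ and UQCRB of complex III, COX8A and COX6B1 of complex IV, and ATP5I and the 3 ATP5G genes of complex V. For SDHA the log2 fold change lay between −0.34 and −0.30 over these fits.

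Some subunits and proteins that act with them have symbols outside the naming rule. Of 9 such genes, 7 had enough counts, and 6 of these fell, against 17.2% of all genes. With length offsets 4 of the 7 fell, against 15.8% of all genes, and COX4I1 and USMG5 no longer passed. COX4I1, the largest nuclear subunit of complex IV, fell from 377 ± 15.8 to 338 ± 7.39 CPM, at a log2 fold change of −0.16 (adjusted p = 0.000207, edgeR). ATP5O, a stalk subunit of complex V, fell from 204 ± 8.75 to 179 ± 3.02 CPM, at −0.19 (adjusted p = 3.52e-05, edgeR). ATPIF1, the inhibitor of the ATP synthase, was at −0.23, C14orf2 and USMG5, small proteins of complex V, at −0.24 and −0.14, and ATP5S at −0.29. NDUFAB1, an acyl carrier protein that is also a subunit of complex I, did not pass, at −0.066 (adjusted p = 0.254, edgeR).

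Assembly factors, which help build the complexes and are not part of the finished enzymes, were fewer among the genes that fell. Of 51 tested, 12 fell (23.5%) and 1 rose, with a median log2 fold change of −0.075. With length offsets, 8 fell and 4 rose, with a median of −0.032. Over all genes 17.2% fell and 17.4% rose, or 15.8% and 15.7% with length offsets, so with offsets the factors fell about as often as all genes. The median standard error was 0.056 for the factors and 0.037 for the subunits, so a shift of the same size passed less often in the factors. Of the 51 estimates 44 were below 0, as were 6774 of 13408 over all genes tested. The difference between factors and subunits was not tested. By complex, 2 of 16 factors of complex I fell and 1 rose, 0 of 4 fell for complex II (1 at an unadjusted p under 0.05, and 0 at an adjusted p under 0.05 in DESeq2 and limma voom), 1 of 6 for complex III, 7 of 21 for complex IV and 2 of 4 for complex V. The lowest was COX19, a factor for the copper supply of complex IV, which fell from 24.0 ± 0.437 to 19.1 ± 0.825 CPM, at −0.33 (adjusted p = 0.000226, edgeR). The one that rose was C2orf56, a complex I factor, from 13.0 ± 1.05 to 15.2 ± 1.08 CPM, at 0.23 (adjusted p = 0.0402, edgeR).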

How the data were processed

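The 3 control and 3 SMIP34-treated RNA-seq libraries were grouped by their labels, and no sample was left out. The authors deposited estimated counts per gene, which can be fractions of reads, without normalization. Per the file headers, featureCounts 1.5.0-p1 summed single reads over the exons of the UCSC hg19 genes by strand. It took reads with a mapping quality of at least 2 and was set to divide those that mapped to several places or genes. The submitters' processing notes name HISAT2, and the methods of the paper tophat2 and HTSeq. The labels name library kits of different makers.

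Counts were rounded, filtered with filterByExpr, scaled by TMM and tested with the quasi-likelihood method of edgeR 4.0.16 (R 4.3.3), with Benjamini-Hochberg adjustment over 13408 genes and thresholds of 0.05 and an absolute log2 fold change of 0.5. Standard errors came from the F statistic. log2 CPM used a prior count of 2. Alternatives were DESeq2 1.42.0, limma 3.58.1 (voom), other scalings and filters, the legacy method, a replicate block, length offsets taken from a loess curve (span 0.3) in each library, and leaving out each library. Leaving out ATP5J2-PTCD1 was added after the data were seen. Ratios were compared by exact permutation (scipy 1.17.1). In data simulated with the same spread setting for all genes and no dependence on length, the test found 90 of 100 genes changed by 0.5 and 100 of 100 changed by 1 on the log2 scale. All subunit changes were smaller than 0.5, and changes that small were not simulated. Repeated stretches were found by exact match in GRCh37. Promoters are from RefSeq GRCh38.p14.

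The members and gene lists were chosen with earlier results of these data known. Named with their values are the extremes of each complex, the complex II genes, tissue forms, the highest and lowest level per length, and the extremes of each list. The value of 1 subunit gene is not reported here. Other genes named were chosen after their values were seen.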

Additional observations from a re-analysis of the deposited data

How the results depend on the processing

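The log2 fold changes of the subunits stayed below 0 in the median under all alternatives. The number that fell lay between 53 and 63 under DESeq2, limma voom, the legacy quasi-likelihood method, other scalings and filters and the replicate block (58 fell, median −0.14). These fits held 74 subunits, or 82 with no filter on low counts. The shares of all genes that fell in them are not given here. The replicate numbers were not taken as pairs, since the deviations of same-numbered libraries had correlations of −0.028, 0.033 and −0.011. With 1 library left out, 43 to 63 of the 74 or 75 subunits fitted fell, and the medians lay between −0.18 and −0.12. The shares over all genes are not given for these fits either.

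Length offsets moved the counts and the medians. The number that fell was 31, or 30 with the replicate block as well, and 2 rose in both. The median of all subunits was −0.060, or −0.061 with the block. By complex, the medians with and without the block were −0.059 and −0.059 (I), −0.11 and −0.11 (II), −0.077 and −0.077 (III), −0.017 and −0.017 (IV), and −0.097 and −0.097 (V). In the 22 genes with whole counts, 17 fell, fewer because fewer genes are counted, and the complex V median, over 3 genes, was −0.26. Some small estimates changed sign. With length offsets, and with the block added, the values were 0.022 and 0.022 for COX6A1, 0.00052 and 0.0014 for COX7A2, 0.0076 and 0.0078 for COX7B, 0.031 and 0.032 for SDHB, 0.013 and 0.014 for UQCRFS1 and 0.044 and 0.044 for UQCRC2. UQCRC2 was also at 0.0066 with library size alone. With 1 library left out it lay between −0.032 and 0.015, above 0 without SMIP34 replicate 2 and without control replicate 2 (0.0065), and NDUFV2 lay between −0.0090, without control replicate 3, and 0.046. The cause of these changes was not tested. With 3 libraries in a group, changes of the size seen here rest on few samples, and counts of genes with repeated or shared exons are uncertain.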

Other observations

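Genes that work beside the complexes did not move as one group. Of 15 electron carriers and coenzyme Q synthesis genes, 6 fell and 1 rose, with a median log2 fold change of −0.11, where 17.2% of all genes tested fell and 17.4% rose. With length offsets 3 fell and 1 rose, where 15.8% of all genes fell and 15.7% rose. The gene that rose was CYCS, cytochrome c, the carrier between complexes III and IV, with 318 ± 5.54 CPM in control and 346 ± 1.60 CPM in SMIP34-treated cells (log2 fold change 0.12, adjusted p = 0.00089, edgeR). The lowest was COQ7, an enzyme of coenzyme Q synthesis, at −0.35 (adjusted p = 0.00128, edgeR). Of 13 citric acid cycle genes other than those of complex II, 5 fell and 1 rose, with a median of −0.070, and with length offsets 3 fell and 1 rose. DLD, a shared subunit of the 2-oxoacid dehydrogenases, was lowest at −0.17, and IDH3A, the catalytic subunit of isocitrate dehydrogenase, rose from 53.8 ± 1.72 to 61.0 ± 0.429 CPM (0.18, adjusted p = 0.00147, edgeR).

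Among regulators of mitochondrial genes, 11 of 12 listed were tested, 0 fell (0 also at an unadjusted p under 0.05 in edgeR, and at an adjusted one in DESeq2 and limma voom) and 3 rose, with a median log2 fold change of 0.068, beside the same shares of 17.2% and 17.4% over all genes. These were PPARGC1B, a coactivator (0.35, adjusted p = 0.00613, edgeR), POLRMT, the mitochondrial RNA polymerase (0.15, adjusted p = 0.00216), and PPRC1, a related coactivator (0.13, adjusted p = 0.0436). With length offsets 2 of the 11 rose, POLRMT and YY1, beside 15.7% of all genes, and PPARGC1B and PPRC1 no longer passed. PPARGC1A had 0 to 3 counts per library.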
